A study of Homo sapiens with 12 samples.

Results

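Kruppel-like factors (KLFs) are transcription factors that bind GC-rich and CACCC DNA through 3 zinc fingers at the end of the protein. The rest of each protein differs, so that some members mainly activate their targets and others recruit the corepressors CtBP or SIN3A. They act in proliferation, differentiation and hormone responses, and KLF4 is also used with OCT4 and SOX2 to reprogram somatic cells. The 10 genes described here are KLF2, KLF3, KLF5, KLF6, KLF7, KLF9, KLF10, KLF11, KLF12 and KLF13, chosen by name as family members other than KLF4. They are 10 of the 40591 named rows of the count table, and all 10 were among the 15179 genes with enough reads to be tested. Compared with GFP cells, OSK cells had 6.98-fold more KLF3 and 2.39-fold more KLF9 RNA, 2-fold less KLF5 and 1.98-fold less KLF11. GSTA4 cells had 1.88-fold less KLF7 than GFP cells. KLF12 was higher than in GFP cells in both, by 1.61-fold in GSTA4 and 1.54-fold in OSK.

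The cells were ARPE-19, an established line derived from human retinal pigment epithelium (RPE), and their poly(A) RNA was sequenced in 4 groups of 3 libraries. GFP, GSTA4 and OSK are stable lines in which an open reading frame (ORF) had been expressed for 4 days, and WT names cells for which no ORF is given. GFP was read as the fluorescent protein control, GSTA4 as glutathione S-transferase alpha 4, an enzyme that detoxifies lipid peroxidation aldehydes, and OSK as the factors OCT4, SOX2 and KLF4 together. Whether libraries of a group were separate cultures, how WT cells were kept, which promoter drives the ORFs, and whether a line is 1 clone are not stated in the labels. P-values therefore measure the spread between these libraries, which may be technical, and an ORF and any other difference between the lines cannot be told apart.

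Total counts ran from 12630675 to 17045454 per library. GFP replicate 1 detected 27349 named genes and the others 19488 to 22073. WT replicate 1 differed most from its group, with a chi-square per degree of freedom of 17.7 and 20.8 against the other WT libraries and 2.66 to 7.67 in the other pairs. Levels are CPM, the reads of a gene at equal sequencing depth, after trimmed mean of M-values (TMM) scaling, and 3 reads, the most that a count of 0 allows, were worth 0.177 to 0.228 CPM (counting error only). KLF4, the K of OSK, was at 949, 923 and 912 CPM in the OSK libraries, and at 1.49, 1.1 and 0.885 in WT, 0.912, 0.788 and 0.272 in GFP and 2.67, 0.675 and 1.38 in GSTA4, so it followed the labels. Reads of the ORF and of the cells' own KLF4 gene cannot be told apart. The RPE genes MITF, OTX2, PMEL and TYRP1 were present in every group, while RPE65, DCT and TTR had group means of at most 0.495, 0.192 and 0.114 CPM. RLBP1, BEST1 and LRAT had group means from 0.692 to 14.3 CPM. The 7 pluripotency markers (NANOG, LIN28A, DPPA4, UTF1, ZFP42, TDGF1, SALL4) summed to at most 1.67 CPM in any library and to 0.0633 to 0.142 CPM in OSK.

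The coding sequence of the zinc fingers is shown because it is what the family shares, and because OSK cells carry very many KLF4 reads. Coding bases of the first finger and its linker were taken from the GENCODE v29 transcripts (GRCh38), 5′ to 3′. Capitals mark bases that differ from KLF4.
KLF4: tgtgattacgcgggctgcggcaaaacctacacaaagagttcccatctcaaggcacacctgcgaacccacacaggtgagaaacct
KLF3: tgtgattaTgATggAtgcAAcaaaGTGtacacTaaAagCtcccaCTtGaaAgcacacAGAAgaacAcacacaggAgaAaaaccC
KLF9: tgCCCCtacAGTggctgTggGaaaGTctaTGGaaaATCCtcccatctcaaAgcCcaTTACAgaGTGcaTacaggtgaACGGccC
KLF5: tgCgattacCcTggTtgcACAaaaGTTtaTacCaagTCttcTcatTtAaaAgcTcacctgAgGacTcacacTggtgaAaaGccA
KLF11: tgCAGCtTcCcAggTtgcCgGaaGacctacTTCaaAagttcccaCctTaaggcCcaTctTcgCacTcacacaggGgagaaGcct
KLF7: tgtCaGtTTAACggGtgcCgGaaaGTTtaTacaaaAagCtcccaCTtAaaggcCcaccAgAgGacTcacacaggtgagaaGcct
Of these 84 bases, KLF3 and KLF11 differed from KLF4 at 24, KLF7 at 25, KLF5 at 26 and KLF9 at 34. Over the 243 bases of all 3 fingers, KLF2 was the most like KLF4 at 78.6% identical bases and KLF9 the least at 57.6%. KLF3 was at 68.3%, KLF5 at 70% and KLF11 at 60.9%. The longest stretch of exact identity with the KLF4 coding sequence was 17 bases in KLF2, 12 in KLF3 and 11 in both KLF9 and KLF5. The pairs of members most alike were KLF6 and KLF7 (83.5%), KLF3 and KLF12 (79.4%), KLF10 and KLF11 (78.2%) and KLF9 and KLF13 (75.3%).

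Against the GFP line, 9 of the 10 members passed the test in OSK cells, 3 higher and 6 lower, where 45.9% of all tested genes passed, 23.1% higher and 22.8% lower. KLF3, KLF9 and KLF12 rose, KLF2, KLF5, KLF6, KLF7, KLF10 and KLF11 fell, and KLF13 did not pass. The median log2 change of the members was -0.27, against -0.019 over all tested genes. Among them 3 changed by at least 2-fold (log2 of 1), KLF3 and KLF9 upward and KLF2 downward, where 11.6% of all tested genes did. OSK and GFP libraries did not overlap for any of the 10 members, nor for 54.7% of all tested genes. Tests were edgeR quasi-likelihood tests over all genes with Benjamini-Hochberg adjustment at 0.05, with 3 libraries a group. These are whole-culture RNA levels, so fewer cells of a type and less RNA per cell cannot be told apart.

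RPE markers also differed between the groups. In OSK against GFP all 11 tested RPE markers fell, where 22.8% of all tested genes did. Against WT, 5 of the 11 fell and 2 rose in OSK, where 45.4% of all tested genes passed. The median log2 change of the markers against WT was -0.22. The sum of the RPE markers, over 14 genes, was 1387 to 1458 CPM in OSK against 2187 to 2521 in GFP. In GSTA4 against GFP 8 fell and 1 rose, where 14.6% of all tested genes fell and 14.7% rose. Their sum was 1572 to 1645 CPM in GSTA4. In GFP against WT 8 rose and 2 fell, where 11% of all tested genes rose and 11.2% fell. The median log2 change of the RPE markers was 0.76, and their sum was 2419.7 to 2658 CPM in WT. KRT8 and KRT18 made up much of these sums. KRT8 averaged 1247, 843, 679 and 501 CPM in WT, GFP, GSTA4 and OSK, and KRT18 averaged 432, 314, 292 and 228. The part of the RPE markers in the KLF results was not tested. Immune markers summed to at most 1.06 CPM in any library, and the 7 fibroblast and mesenchymal markers to 796 to 817 CPM in OSK against 1246 to 1351 in GFP. The fibroblast and mesenchymal sums were mostly from PDGFRB, at 343 CPM in OSK and 660 in GFP, and VIM, at 434 and 549.

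**Figure D1:**
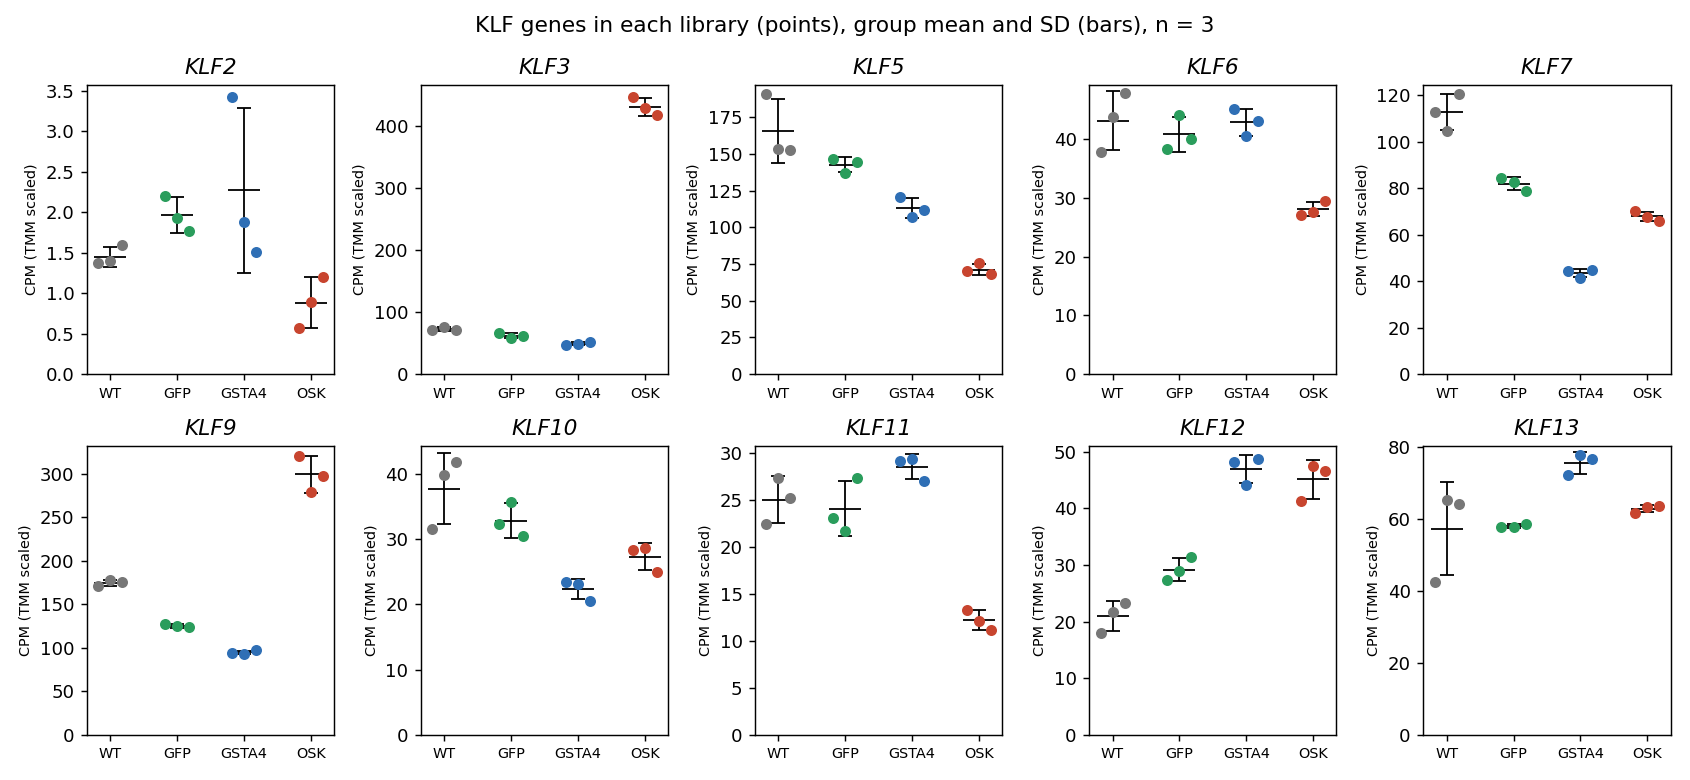
TMM-scaled CPM (vertical axes, from 0) of the 10 genes in WT, GFP, GSTA4 and OSK cells; points are libraries in replicate order, and black bars the group mean and SD (n = 3). The OSK libraries stand above all others for KLF3 and KLF9 and below all others for KLF2, KLF5, KLF6 and KLF11.

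KLF3, a repressor that recruits CtBP (chr4:38664196-38701042, plus strand, GENCODE v29 on GRCh38), had the largest change of any member. Its CPM was 446, 428 and 417 in the OSK libraries, and 65.9, 58 and 61.1 in GFP, 46.2, 49.2 and 52.3 in GSTA4 and 71, 76.4 and 70.9 in WT. No library of 1 group overlapped with those of another. The means were 430.4 ± 14.6 CPM in OSK and 61.7 ± 4 in GFP (SD, n = 3), a 6.98-fold rise of 2.8 on the log2 scale (SE 0.0661, adjusted p = 7.32e-18). The smaller falls between the other groups also passed, with log2 changes of -0.32 (adjusted p = 0.00105) in GSTA4 against GFP and -0.24 (adjusted p = 0.0135) in GFP against WT. The fall in GFP against WT was lost without WT replicate 2 (adjusted p = 0.0574) or GFP replicate 2 (0.0797), and in a fit to only the 6 libraries compared (0.0536). An antisense RNA, KLF3-AS1, overlaps 266 bases, or 4.22%, of the KLF3 exons on the opposite strand. KLF3-AS1 was at 5.05 ± 0.949 CPM in GFP and 8.14 ± 0.958 in OSK, a log2 change of 0.68 (adjusted p = 0.00455). The library kit is not described as marking strand, so the reads of that stretch cannot be told apart. KLF3-AS1 held 112 to 126 reads in the OSK libraries and KLF3 held 5925 to 6768.

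KLF12 (chr13:73686089-73995056, minus strand) is the other CtBP-recruiting member and was higher in both GSTA4 and OSK than in GFP. Its CPM was 18, 21.7 and 23.3 in WT, 27.3, 29 and 31.4 in GFP, 48.2, 44.2 and 48.7 in GSTA4 and 41.3, 47.5 and 46.6 in OSK. The order of the groups was WT, then GFP, then GSTA4 and OSK, whose libraries overlapped. The log2 change was 0.63 (adjusted p = 1.54e-05) in OSK against GFP, 0.69 (adjusted p = 1.15e-05) in GSTA4 against GFP and 0.48 (adjusted p = 0.00185) in GFP against WT. All 3 use the GFP libraries, the last on the opposite side. OSK and GSTA4 did not pass against each other, with a difference of -0.060 and a 95% interval of -0.25 to 0.13 (adjusted p = 0.623). KLF8, the remaining relative of KLF3 and KLF12, was low at 4.16 ± 1.16 CPM in GFP and 1.93 ± 0.502 in OSK, a log2 change of -1.09 (adjusted p = 0.00465).

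KLF9 (chr9:70384597-70414624, minus strand), a SIN3A-recruiting factor induced by glucocorticoid and thyroid hormones, was the second member that rose strongly in OSK. The OSK libraries held 321, 279 and 297 CPM, against 127, 125 and 123 in GFP, 94.2, 93 and 97 in GSTA4 and 171, 178 and 175 in WT. The groups were ordered OSK, WT, GFP and GSTA4 with no overlap between neighbours. OSK against GFP gave 2.39-fold, or 1.26 on the log2 scale (SE 0.0584, adjusted p = 4e-13). Against WT the OSK rise was 0.78 (adjusted p = 5.1e-10), and GFP against WT fell by 0.48 (adjusted p = 8.26e-06). GSTA4 lay lower again and fell by 0.4 (adjusted p = 2.9e-05) against GFP.

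KLF13 (chr15:31326855-31435665, plus strand), the SIN3A-recruiting relative of KLF9, was highest in GSTA4. Its CPM was 42.4, 65.3 and 64.3 in WT, 57.7, 57.8 and 58.6 in GFP, 72.1, 77.8 and 76.7 in GSTA4 and 61.8, 63.2 and 63.7 in OSK. The 3 GSTA4 libraries were above all 9 others, and WT replicate 1 was the lowest of all. KLF13 rose in GSTA4 against GFP by 0.38 (adjusted p = 0.011). In OSK against GFP the difference was 0.12, with a 95% interval of -0.11 to 0.34 (adjusted p = 0.406).

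KLF10 and KLF11 are early genes of the transforming growth factor beta (TGF-beta) response and also bind SIN3A. They were lowest in different lines. KLF11 (chr2:10042849-10054836, plus strand) was at 13.3, 12.1 and 11.2 CPM in OSK against 23.1, 21.7 and 27.4 in GFP, 29.2, 29.4 and 27 in GSTA4 and 22.5, 27.4 and 25.3 in WT. The OSK libraries were below all others, and WT, GFP and GSTA4 overlapped in part. The change in OSK against GFP was -0.98 on the log2 scale (SE 0.113, adjusted p = 4.12e-07). GSTA4 against GFP was at 0.24 (adjusted p = 0.0864), which did not pass, though it did without GFP replicate 3 (adjusted p = 0.029). An antisense RNA overlaps 9.07% of the KLF11 exon bases on the opposite strand. KLF10 (minus strand) was lowest in GSTA4, with 23.4, 23 and 20.5 CPM against 32.3, 35.7 and 30.4 in GFP, 28.3, 28.7 and 24.9 in OSK and 31.5, 39.7 and 41.8 in WT. Its change in GSTA4 against GFP was -0.55 on the log2 scale (SE 0.108, adjusted p = 5.51e-04). In OSK against GFP the KLF10 change of -0.26 (adjusted p = 0.0483) lay at the threshold. It did not pass under relative log expression (RLE) scaling, DESeq2 or no filter, nor without WT replicate 2, GFP replicate 1 or 2, or any single OSK or GSTA4 library (adjusted p = 0.0543 to 0.203).

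KLF5 (chr13:73054976-73077542, plus strand), an activator that promotes proliferation in epithelia, was the highest member per exon length in WT, GFP and GSTA4 cells. It was at 191, 154 and 153 CPM in WT, 146, 137 and 145 in GFP, 121, 107 and 112 in GSTA4 and 70.2, 75.7 and 67.9 in OSK. No 2 groups overlapped, and their levels fell in that order. OSK against GFP was 2-fold lower, at -1.0 on the log2 scale (SE 0.0798, adjusted p = 2.08e-09). GSTA4 against GFP fell by 0.33 (adjusted p = 0.00285), and OSK against GSTA4 had a log2 difference of -0.67 (adjusted p = 6.06e-07). The difference between GFP and WT, -0.22 (adjusted p = 0.0476), was lost under several settings. It was -0.11 (adjusted p = 0.288) without WT replicate 1, and it also missed the threshold without any single GFP or OSK library or without GSTA4 replicate 2 or 3 (adjusted p = 0.0531 to 0.171). Nor did it pass under library size alone (0.0689), a mean of 1 CPM or more (0.0557) or a fit to only the libraries compared (0.117).

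KLF6 and KLF7 have the most alike fingers of all pairs. KLF6 was lowest in OSK and KLF7 in GSTA4. KLF6 (chr10:3775996-3785281, minus strand), an activator induced by tissue injury, held 27.1, 27.7 and 29.4 CPM in OSK against 38.2, 44.2 and 40.01 in GFP, 45.1, 40.5 and 43 in GSTA4 and 37.8, 43.8 and 47.8 in WT. In OSK against GFP it fell by 0.54 (adjusted p = 6.3e-05), while GSTA4 against GFP was 0.071 with a 95% interval of -0.12 to 0.26 (adjusted p = 0.599). KLF7 (chr2:207074137-207167267, minus strand), known for its role in axon outgrowth, held 44.4, 41.3 and 44.8 CPM in GSTA4, 70.0, 67.7 and 65.8 in OSK, 84.3, 82.7 and 78.9 in GFP and 113, 105 and 120.3 in WT. These are 4 separate levels with no overlap. GSTA4 against GFP was 1.88-fold lower, at -0.91 on the log2 scale (SE 0.0686, adjusted p = 2.04e-09), the largest change of any member in that comparison. OSK against GFP fell by 0.27 (adjusted p = 0.00212) and GFP against WT fell by 0.46 (adjusted p = 4.69e-05). The log2 difference of OSK from GSTA4 was 0.64 (adjusted p = 1.33e-07) for KLF7 and -0.61 (adjusted p = 1.16e-05) for KLF6.

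KLF2 (chr19:16324817-16327874, plus strand), which keeps endothelial cells and T cells quiescent, was the lowest member in every group. It had 8, 14 and 17 reads in the OSK libraries, or 0.569, 0.886 and 1.2 CPM, and 29, 27 and 26 reads in GFP, or 2.21, 1.94 and 1.77 CPM. GSTA4 held 3.43, 1.88 and 1.51 CPM and WT 1.37, 1.4 and 1.59. The OSK libraries were below all others, and GSTA4 replicate 1 stood high. The change in OSK against GFP was -1.14 on the log2 scale (SE 0.385, adjusted p = 0.0195). It was lost without GFP replicate 1 (adjusted p = 0.0548), OSK replicate 1 (0.0928) or OSK replicate 2 (0.0517), and OSK against WT did not pass at -0.71 (adjusted p = 0.15). The 5 endothelial markers summed to 71 to 94.5 CPM in WT, 58.7 to 73.1 in GFP, 36.3 to 38.7 in GSTA4 and 23.6 to 26.6 in OSK, mostly from KDR. CDH5 averaged only 0.0404 CPM in WT and 0.351 in GFP, and had no reads in the GSTA4 and OSK libraries. VWF was at 0.249, 1.29, 0.459 and 2.04 CPM in WT, GFP, GSTA4 and OSK. Their part in the KLF2 values was not tested.

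Levels of different members can be set side by side only per length. In GFP cells KLF5 stood at 36.6 CPM per kb of exon, KLF9 at 24.2 and KLF3 at 9.79, and KLF2 was lowest at 0.976. In OSK cells the order changed to KLF3 at 68.3, KLF9 at 57.8 and KLF5 at 18.3 CPM per kb. The OSK libraries spanned 66.2 to 70.8 for KLF3 and 54 to 62 for KLF9, which did not overlap. KLF4 in these cells was at 254 CPM per kb of the 3659 exon bases of its gene. That value was not adjusted for the length of the ORF, so it cannot be set beside the other members. In GSTA4 cells KLF5 (29.1) and KLF9 (18.3) remained the leading pair, and KLF13 at 8.03 and KLF3 at 7.82 overlapped behind them.

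**Figure D2:**
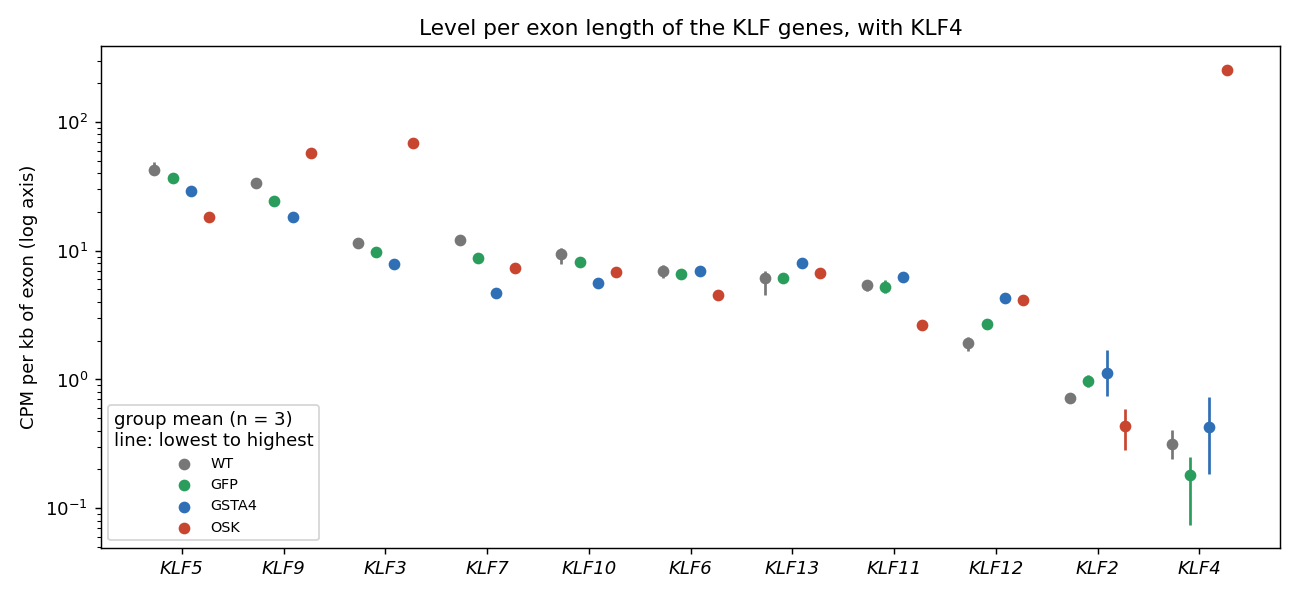
Mean CPM per kb of merged GENCODE v29 exon (log axis) of the 10 genes and KLF4 in each group, ordered by the GFP mean; lines span the lowest to the highest of 3 libraries. KLF3 and KLF9 are above KLF5 in OSK, and below it in the other groups. The KLF4 level in OSK was not adjusted for the length of the ORF.

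In GSTA4 cells against GFP, 7 members passed, 2 higher (KLF12, KLF13) and 5 lower (KLF3, KLF5, KLF7, KLF9, KLF10), where 29.2% of all tested genes passed, 14.7% higher and 14.6% lower. The members' median log2 change was -0.13, against 0.0082 over all tested genes, and none reached 2-fold, where 5.7% of all tested genes did. In the control comparison of GFP with WT, 5 members passed, KLF12 higher and KLF3, KLF5, KLF7 and KLF9 lower, where 22.2% of all tested genes passed, 11% higher and 11.2% lower. Without GFP replicate 2, 3 members passed, since KLF3 and KLF5 were lost. Without WT replicate 1, KLF5 was lost and KLF10 passed at -0.32 (adjusted p = 0.0229). Against WT, 8 members passed in OSK, where 45.4% of all tested genes did, and 7 in GSTA4, where 38.6% did.

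OSK and GSTA4 compared directly gave 9 members past the threshold, 4 higher in OSK (KLF3, KLF7, KLF9, KLF10) and 5 lower (KLF2, KLF5, KLF6, KLF11, KLF13), where 47.8% of all tested genes passed, 24.1% higher and 23.8% lower. KLF3 differed by 3.13 (adjusted p = 1.52e-18), KLF9 by 1.66 (adjusted p = 3.86e-15), KLF11 by -1.23 (adjusted p = 1.02e-08) and KLF2 by -1.36 (adjusted p = 0.00522). The KLF2 difference was -0.93 and did not pass without GSTA4 replicate 1 (adjusted p = 0.0717). KLF10 at 0.29 (adjusted p = 0.0331) did not pass without OSK replicate 1 (0.0767) or 2 (0.113), or GSTA4 replicate 2 (0.0538) or 3 (0.141), nor under scaling by library size alone (0.0913). KLF13 at -0.26 (adjusted p = 0.0473) did not pass without any single GFP, OSK or GSTA4 library (adjusted p = 0.0566 to 0.139), nor under RLE scaling (0.0601) or DESeq2 (0.0578). Over all 4 groups, every member passed the F test, where 66.9% of all tested genes did.

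**Figure D3:**
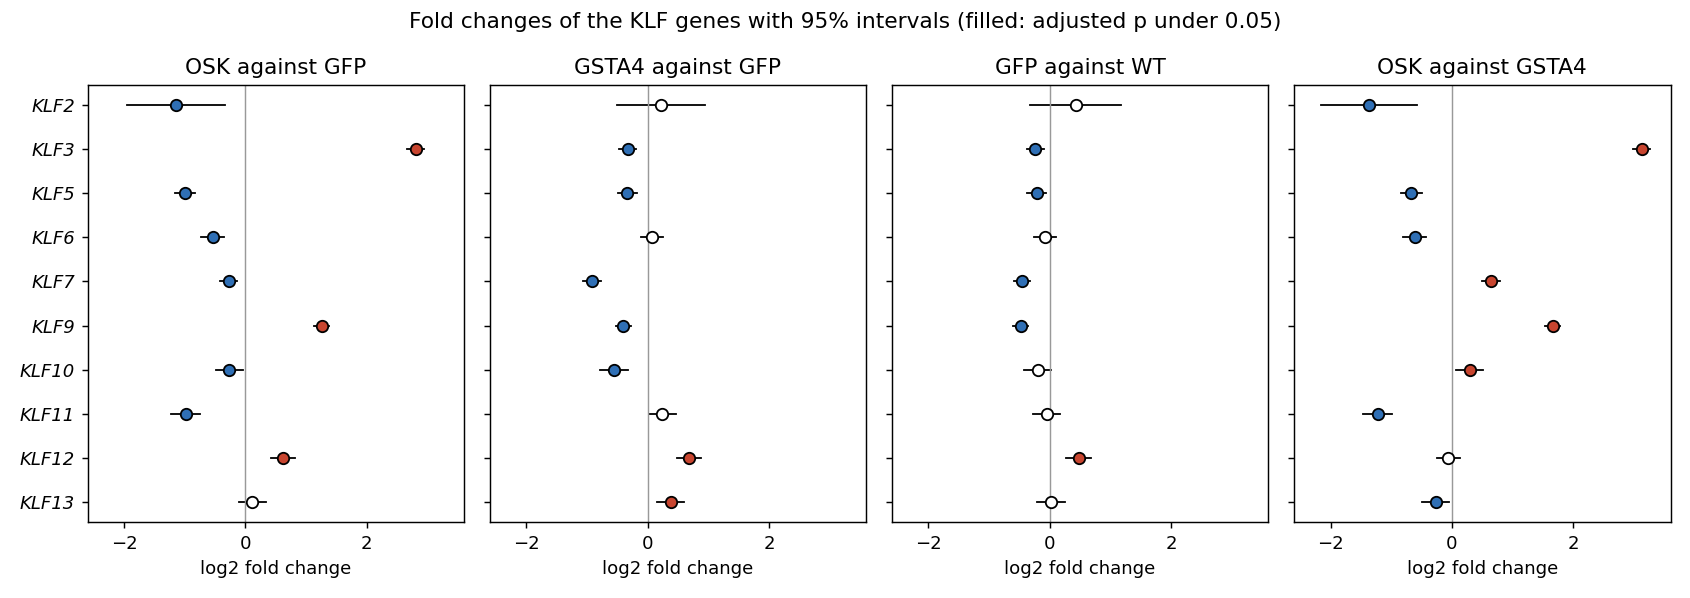
Fitted log2 fold changes (horizontal axes) of the 10 genes in 4 comparisons, with 95% intervals; filled points have an adjusted p under 0.05, red for higher and blue for lower. KLF3 at 2.80 and KLF9 at 1.26 stand apart in OSK against GFP, and KLF7 at -0.91 is the lowest in GSTA4 against GFP.

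Promoter sequence is shown for KLF5 and KLF11, which fell by similar amounts in OSK. The RefSeq table (GRCh38.p14) held 8 of the 10 members. The windows are the 250 bases before a start site, on the plus strand, and each of these genes has 2 starts there, of which the downstream is given. Capitals mark GGGTG or its reverse CACCC, the core of the KLF motif, and GGGCGG or its reverse CCGCCC, the GC box, which KLF and SP factors bind.
KLF5, chr13:73058755-73059004: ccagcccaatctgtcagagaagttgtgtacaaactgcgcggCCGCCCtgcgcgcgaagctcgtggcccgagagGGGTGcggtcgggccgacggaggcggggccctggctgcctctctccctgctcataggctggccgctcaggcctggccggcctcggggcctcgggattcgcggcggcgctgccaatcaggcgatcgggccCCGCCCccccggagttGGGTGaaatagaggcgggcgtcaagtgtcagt
KLF11, chr2:10043971-10044220: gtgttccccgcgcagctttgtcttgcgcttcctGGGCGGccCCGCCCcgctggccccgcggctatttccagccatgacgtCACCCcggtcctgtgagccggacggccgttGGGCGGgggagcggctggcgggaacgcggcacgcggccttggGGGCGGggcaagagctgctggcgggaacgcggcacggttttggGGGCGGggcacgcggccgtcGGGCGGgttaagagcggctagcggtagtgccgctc
The KLF5 window held 2 matches to GGGTG and 2 to GGGCGG, and the KLF11 window 1 and 6. Of 35116 promoter windows, 54.7% held at least 1 GGGTG and 42.6% at least 1 GGGCGG on either strand, so holding a match is common. The mean counts per window were 0.911 for GGGTG and 0.972 for GGGCGG. The upstream windows, not shown, held 1 and 0 matches in KLF5 and 0 and 2 in KLF11. KLF9, which rose, had neither in its window. KLF12, which also rose, had 5 matches to GGGTG and 4 to GGGCGG in 1 of its 4 windows. Another KLF12 window held 5 and 0, and the rest held neither. All 4 lie outside the GENCODE v29 span of KLF12, which reaches 73995056, and the nearest begins at 74026889. Which start these cells used was not measured.

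Other genes around the family were read from lists. Their counts stand against the 45.9% of all tested genes that passed in OSK against GFP, the 29.2% in GSTA4 against GFP and the 22.2% in GFP against WT. Of the other KLF genes, KLF1, KLF14, KLF17 and KLF18 had too few reads to test. KLF15 was at 19.5 ± 2.6 CPM in WT and 13.6 ± 0.953 in GFP, a log2 change of -0.52 (adjusted p = 0.00875), and KLF16 rose in GSTA4 against GFP by 0.5 (adjusted p = 0.00757). Among the related SP factors, which bind the same GC boxes, 1 of 5 tested rose and 2 fell in OSK against GFP. SP1 was at 98.6 ± 0.661 CPM in OSK and 94 ± 3.36 in GFP, and SP2 rose by 0.45 (adjusted p = 0.00186). In GSTA4 against GFP 1 of the 5 passed, SP4, which fell by 0.63 (adjusted p = 2.37e-04).

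KLF9 is a target of the glucocorticoid receptor, and the list of the receptor and its known induced genes was mostly higher in OSK. Of 9 tested, 8 rose and 1 fell in OSK against GFP, with a median log2 change of 0.85 against -0.019 over all tested genes. TSC22D3, the leucine zipper GILZ, rose from 35.6 ± 1.09 to 108 ± 5.63 CPM, by 1.6 (adjusted p = 6.12e-07). PER1 rose by 1.43 (adjusted p = 4.94e-08), the kinase gene SGK1 by 1.26 (adjusted p = 5.14e-11) and the receptor gene NR3C1 by 0.44 (adjusted p = 2.22e-04). The metallothionein MT2A fell by 0.31 (adjusted p = 0.0217). In GSTA4 against GFP, 4 of the 9 fell and none rose, with a median of 0.0036. TSC22D3 fell by 1.0 there (adjusted p = 0.00117), and SGK1 was at 26.5 ± 0.445 CPM in GSTA4 and 26.4 ± 2.35 in GFP. In GFP against WT 6 of the 9 fell and none rose, with a median of -0.61. OSK against WT gave 5 rises and 1 fall, with a median of 0.48, where 45.4% of all tested genes passed. In OSK against GSTA4 all 9 rose, where 24.1% of all tested genes did. KLF9 itself is not in the list and changed by 1.26, -0.40 and -0.48 in OSK against GFP, GSTA4 against GFP and GFP against WT. All 3 of these comparisons use the GFP libraries, the last on the opposite side. The part of the receptor in the KLF9 values was not tested, and the list was chosen with earlier results of these data known.

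The circadian genes, among which KLF9 and KLF10 cycle in many tissues, had 2 rises and 3 falls among 15 tested in OSK against GFP. The repressors BHLHE40 and BHLHE41 moved apart, with log2 changes of 1.2 (adjusted p = 4.4e-10) and -2.02 (adjusted p = 7.22e-10). In GSTA4 against GFP 5 of the 15 fell and none rose, with BHLHE40 at -1.71 (adjusted p = 2.2e-11).

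Of 12 tested genes of the TGF-beta pathway and its early response, 4 rose and 7 fell in OSK against GFP. The inhibitor SMAD7 fell by 0.77 (adjusted p = 3.7e-09), while the receptor TGFBR2 rose by 0.69 (adjusted p = 1.12e-06). There were 4 rises and 5 falls in GSTA4 against GFP. SMAD7 fell by 1.21 (adjusted p = 1.25e-11) and SKIL, another early target, fell by 1.01 (adjusted p = 7.01e-09), and the ligand TGFB2 rose by 1.12 (adjusted p = 4.78e-10). The members KLF10 and KLF11 are not counted in this list.

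Upstream of KLF2, the MEK5-ERK5-MEF2 list had 4 rises and 3 falls among 8 tested genes in OSK against GFP. MEF2D rose by 0.83 (adjusted p = 2.66e-08) and the ERK5 gene MAPK7 by 0.53 (adjusted p = 1.57e-04). MEF2A rose in GSTA4 against GFP from 123 ± 6.83 to 377 ± 16.7 CPM, by 1.62 (adjusted p = 4.09e-14), and MAP3K2 fell by 0.53 (adjusted p = 1.53e-06). Among 12 corepressor and coactivator genes 3 rose and 3 fell in OSK against GFP, a share near the 45.9% of all tested genes. FHL3, a partner of KLF3, fell by 1.22 (adjusted p = 6.65e-07), and the SIN3 complex subunit SAP30 rose by 0.85 (adjusted p = 8.05e-07). In GSTA4 against GFP 2 of the 12 rose and none fell. Of 8 genes for KLF protein turnover, 1 rose and 2 fell in each of these comparisons, with the ubiquitin ligase gene SMURF2 at -0.57 (adjusted p = 9.26e-06) in OSK and SIAH1 at -0.84 (adjusted p = 1.32e-04) in GSTA4.

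Of 13 tested genes described elsewhere as KLF targets, 4 rose and 3 fell in OSK against GFP, where 45.9% of all tested genes passed. In GSTA4 against GFP 4 rose and 3 fell, where 29.2% of all tested genes passed. The monoamine oxidase gene MAOA, a reported target of KLF11, held 6.28 ± 0.401 CPM in OSK, 16.4 ± 1.91 in GFP and 104 ± 3.85 in GSTA4. Its log2 changes were -1.39 (adjusted p = 1.55e-09) in OSK and 2.66 (adjusted p = 9.03e-15) in GSTA4. CCNB1, cyclin B1, rose by 1.02 (adjusted p = 9.55e-09) in OSK, and S1PR1, a target of KLF2, rose by 1.33 (adjusted p = 7.63e-04) in GSTA4.

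**Figure D4:**
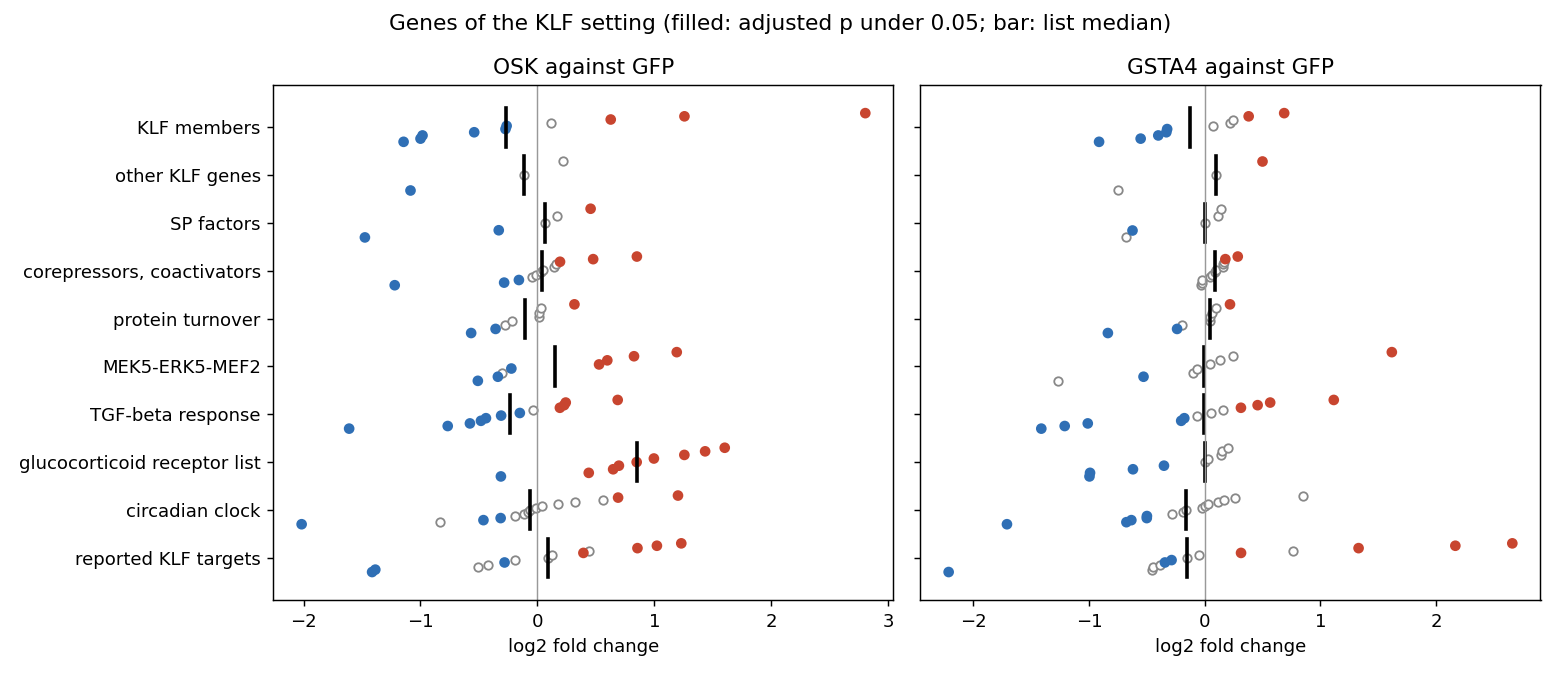
Log2 fold changes (horizontal axes) of the tested genes of each list in OSK against GFP and GSTA4 against GFP; each point is a gene, filled where its adjusted p is under 0.05, and bars mark list medians. The median of the glucocorticoid receptor list is at 0.85 in OSK and 0.0036 in GSTA4.

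The genes closest to the 3 members of widest range were found from log2 CPM centred per gene over all 12 libraries, among 9604 genes with a mean of at least 10 CPM. LPCAT3, a phospholipid acyltransferase gene, lay nearest to KLF3, at a root mean square difference of 0.163 log2 units, followed by EFR3B (0.169) and KSR1 (0.208). LPCAT3 averaged 22.9, 24, 19.2 and 143.7 CPM in WT, GFP, GSTA4 and OSK. For KLF9 those reported are CD9 (0.127) and SLC8B1 (0.161), and CD9, a tetraspanin gene, averaged 66.5, 46.1, 31.5 and 98.2 CPM in the same order. For KLF7 they were PPL (0.121), KANK1 (0.124) and NDRG4 (0.13), and PPL, which encodes periplakin, averaged 204.1, 144.1, 77.3 and 116.1 CPM. These distances describe the same libraries that gave the members' values.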

How the data were processed

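The authors deposited raw counts of reads per gene, made with STAR 2.7.1a and featureCounts 1.6.2, per the submitters' processing notes. Those notes name the builds GRCh38/hg38 and GRCm38/mm10. The annotation release and strand setting are not given in the sources used here. Of 60605 rows, 20014 had no symbol, held 0.485% to 0.822% of a library's reads and were left out. The 40591 named rows were filtered with filterByExpr to 15179 genes. All 12 libraries were fitted together with edgeR 4.0.16 in R 4.3.3 (limma 3.58.1, TMM, quasi-likelihood, 8 residual degrees of freedom, no covariate, two-sided, Benjamini-Hochberg at 0.05). The common biological coefficient of variation was 7.91%. SEs and 95% intervals come from the fold change and F. Alternatives were no filter or a mean CPM of 1 or more, RLE scaling or library size alone, DESeq2 1.42.0, a replicate block, leaving out each library, fitting only the libraries compared, and WT as control. On simulated counts for OSK against GFP, 200 of 15179 genes were changed. Of those changed by 0.5, 1 and 2 (log2), 47%, 61.2% and 95.5% were recovered, with 8 false calls. In the data 45.9% of genes passed, so these rates may not hold there. Depth limits KLF2, which has 8 to 54 reads per library. No library pair was a duplicate.

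The members and lists were chosen with earlier results of these data known; of 147 list entries 145 matched. All members are described. From each list the genes named are among the 3 with the lowest adjusted p per comparison, except NR3C1, MT2A and MAPK7 in OSK, SGK1 in GSTA4, SP1, CDH5 and KDR, which were chosen after their values were seen. Exon lengths and coding bases are from GENCODE v29, promoters from RefSeq. A few genes picked by these rules are left out of the text.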

Additional observations from a re-analysis of the deposited data

How the results depend on the processing

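Over 780 alternative values for the 10 members in 4 comparisons, 723 kept their direction and their side of the threshold, 48 no longer passed, 2 newly passed and 7 changed sign, all 7 for differences that passed in neither setting. In GFP against WT these were KLF13 at -0.16 without WT replicate 1, KLF11 at 0.0098 without WT replicate 2 and 0.017 without GFP replicate 2, and KLF6 at 0.00086 without WT replicate 3. The others were KLF12 at 0.016 in OSK against GSTA4 without OSK replicate 1, and in GSTA4 against GFP KLF2 at -0.21 without GSTA4 replicate 1 and KLF6 at -0.0084 with WT as the control. The cause of these was not tested. The highest or lowest values opposite these, with 1 library left out, were 0.12 for KLF13, -0.16 for KLF11 and -0.17 for KLF6 in GFP against WT, -0.10 for KLF12 in OSK against GSTA4 and 0.45 for KLF2 in GSTA4 against GFP. In GFP against WT the count of members past the threshold went from 5 to 3 in a fit to only the libraries compared, and ranged from 3 to 5 when single libraries were left out; the fit to fewer libraries has fewer degrees of freedom. Leaving out 1 library gave 7 to 9 members in OSK against GFP, 7 to 8 in GSTA4 against GFP, 7 to 9 in OSK against GSTA4 and 9 to 10 in the F test. KLF3, KLF5, KLF6, KLF7, KLF9, KLF11 and KLF12 kept their calls in OSK against GFP, and all 7 called members in GSTA4 against GFP, under every alternative run. WT as the control left 8 members in OSK and 7 in GSTA4, and gave a KLF7 change of -0.73 and a KLF12 change of 1.10 in OSK. Scaling by library size alone moved the median of all genes by at most 0.073 (log2).

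Same-numbered libraries did not all deviate together (correlations from -0.022 to 0.135, with 5 of 12 libraries closest to their own number), so the numbers were not taken as pairs. With a replicate block 9 members passed in OSK against GFP and in OSK against GSTA4, 7 in GSTA4 against GFP, 5 in GFP against WT and 10 in the F test, as without it.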
